A study of Mus musculus with 9 samples.

Results

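Nodal, Lefty1, Lefty2, Gdf3, Tdgf1, Fgf4, Spry4 and Dusp6 form a small signalling module of early embryonic cells, and their expression is described here in 3 kinds of mouse cell: very small embryonic-like stem cells (VSEL), blood-forming or haematopoietic stem cells (HSC) and embryonic stem cells (ESC). The 8 genes were taken by name, and all 16 probe sets that the platform annotation assigned to them were read, out of 45037 probe sets for 18193 genes. None of the 16 was shared with another gene in that annotation.

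Nodal is a secreted ligand of the transforming growth factor beta family. It signals through activin receptors, with Tdgf1 (Cripto) as coreceptor, to Smad2 and Smad3, which act on DNA with Smad4 and Foxh1. Lefty1 and Lefty2 are secreted inhibitors of Nodal that the pathway itself switches on, and Gdf3 is a related ligand made in pluripotent cells. Fgf4 is a secreted fibroblast growth factor that pluripotent cells make and answer to through FGF receptors and the ERK kinase cascade, and Spry4 and Dusp6 are feedback inhibitors of that cascade.

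Expression was measured on 9 Affymetrix mouse arrays, 3 for each cell type. VSEL and HSC came from marrow of 4-week-old C57BL/6 mice, where both were sorted as Sca-1-positive cells that lacked lineage markers. VSEL lacked the leukocyte antigen CD45 and HSC carried it. The ESC were the ESC-D3 line, derived from strain 129S2/SvPas before implantation and kept with 10 ng/ml leukaemia inhibitory factor on 0.1% gelatin, so strain, source and culture differ between ESC and both sorted populations and cannot be told apart from cell type. Each library was made from 20 cells lysed without purification of RNA, and its cDNA was amplified by PCR from a T7 primer. No label states if replicate libraries stem from different animals or cultures. The p-values thus reflect the spread among these libraries alone, and that spread may be technical.

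VSEL 2 and VSEL 3 differed far less than any other pair within a group. Their correlation over probe sets was 0.989 and 1 probe set differed over 4-fold, against correlations of 0.831 to 0.957 and 1565 to 4232 such probe sets in the other pairs. They were averaged and counted as 1 library (VSEL 2+3), which left 2 VSEL libraries, 3 HSC libraries and 3 ESC libraries. All values are log2 signals of robust multi-array analysis (RMA) as deposited, and the lower quartile of all probe sets lay between 3.89 and 3.95 in VSEL and between 3.67 and 3.73 in HSC and ESC. The upper quartile went the other way, between 6.631 and 6.685 in VSEL and between 7.113 and 7.175 in HSC and ESC. The median over all probe sets of the difference in group means was 0.21 for VSEL against HSC and 0.17 for VSEL against ESC. With arrays centred on ribosomal protein genes these medians were 0.74 and 0.49, and with cyclic loess they were 0.02 and -0.00. Differences of the 8 genes are set against these medians. Precision is limited by how few arrays there are, and whether a signal counted as detected was not assessed.

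The sorted cells carried the markers of their gates in part. Ptprc, which encodes CD45, read 3.59 and 3.25 in the VSEL libraries, against 13.40 to 13.68 in HSC and a range of 2.94 to 3.17 in ESC. The median of 7 pluripotency markers, Tdgf1 among them, was 9.73 and 9.80 in VSEL, against 3.50 to 3.80 in HSC and a range of 12.36 to 12.62 in ESC. That median was the value of Tdgf1 itself in VSEL 1, HSC 3 and every ESC library. It is therefore no check separate from the members. All 7 were called higher in VSEL than in HSC and lower in VSEL than in ESC, the 6 other than Tdgf1 included. VSEL libraries also held blood cell transcripts. The median of 5 granulocyte markers was 13.42 and 14.81 in VSEL, against 14.15 to 14.42 in HSC and a range of 4.57 to 4.82 in ESC. The median of the 4 erythroid markers measured was 13.80 and 11.98 in VSEL, against 7.75 to 9.32 in HSC and a range of 4.89 to 5.15 in ESC, and that of 4 B-lineage markers was 11.68 and 10.86 in VSEL, against 8.92 to 10.48 in HSC and a range of 5.03 to 6.15 in ESC. The median of 5 leukocyte markers was 5.74 and 7.37 in VSEL, against 13.40 to 13.60 in HSC and a range of 5.27 to 5.58 in ESC. Its members divided in VSEL. Coro1a read 11.46 and 13.86 and Laptm5 12.71 and 11.95 in the VSEL libraries, both called higher than in ESC, where Coro1a read 6.66 to 7.19 and Laptm5 7.79 to 8.25, while 4 of the 5 were called lower in VSEL than in HSC. The median of 5 T and NK markers was 4.95 and 5.40 in VSEL, against 10.92 to 11.40 in HSC and a range of 4.58 to 4.61 in ESC, and that of 5 mesenchymal markers was 6.60 and 6.35 in VSEL, against 4.61 to 5.24 in HSC and a range of 6.84 to 7.42 in ESC. Of the 4 measured markers of the HSC gate, 1 was called lower in VSEL than in HSC. The list median was 7.25 to 7.42 for HSC, above VSEL (5.19 and 6.30) and ESC (5.12 to 5.72). Slamf1 was likewise highest in HSC (6.11 to 8.58). Mecom was lower in HSC (4.58 to 5.07) than in VSEL (5.4 and 5.9). Kit was lower in HSC (7.57 to 8.96) than in ESC (9.47 to 10.37), and above VSEL (7.36 and 6.66). Cd34 was 6.04 to 8.73 for HSC, 4.53 for VSEL 1 and 10.58 for VSEL 2+3. For 5 endothelial markers the median was 5.32 and 4.77 in VSEL, 4.48 to 4.68 in HSC and between 4.49 and 5.13 in ESC. Of the 4 fibroblast feeder markers, 1 was called lower in VSEL than in HSC. The part of other cell types in the values below was not tested.

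Lefty1, Lefty2, Gdf3, Tdgf1 and Fgf4 were each lowest in HSC and highest in the ESC line, with VSEL in between, by their highest-mean probe sets. By these, the log2 difference of VSEL from HSC ran from 1.11 (Lefty1) to 5.94 (Tdgf1). Gdf3 1460057_at and Fgf4 1450282_at were called in no comparison, and Fgf4 1450282_at averaged 6.81 in VSEL and 6.72 in ESC. Fgf4 1449729_at was called only between HSC and ESC. No fold over HSC is given for Tdgf1, Fgf4 and Lefty2, whose HSC signals were low and were not shown to lie above background. The signal in ESC was 5.35-fold (Gdf3) to 6.99-fold (Fgf4) that in VSEL by the probe sets described in full below. Dusp6 ran another way and was lower in VSEL than in HSC. Nodal and most Spry4 probe sets gave no call between VSEL and either of the other cell types. Because each library pooled 20 cells, fewer cells with a transcript and less transcript per cell cannot be told apart.

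Against HSC, 6 of the 16 probe sets were called higher in VSEL and 1 lower, at a Benjamini-Hochberg adjusted p under 0.05 in a limma fit over all probe sets. Across the array 14.2% of probe sets were called in either direction (8.0% higher and 6.19% lower). With arrays centred on ribosomal protein genes, 89.4% of all calls were higher, against 56.4% as deposited. Under that scaling 51.7% of all probe sets were called higher and 6.1% lower, beside 12 of the 16 higher and 1 lower. Against ESC, none was called higher in VSEL and 7 were called lower, beside 14.1% of all probe sets in either direction (7.13% higher and 6.93% lower). With ribosomal centring 76.6% of all calls against ESC were higher, against 50.7% as deposited, and 20.7% of all probe sets were called higher and 6.34% lower, beside none and 7 of the 16. At an unadjusted limma p under 0.05, none of the 16 was higher and 10 were lower, beside 20.6% and 12.1% of all probe sets. In HSC against ESC none was called higher and 10 lower, beside 10.6% of all probe sets (4.42% higher and 6.21% lower), and at an unadjusted limma p under 0.05 none was higher and 12 lower, beside 8.81% and 12.1% of all. The median log2 difference of the 16 was 0.96 for VSEL against HSC, -2.14 for VSEL against ESC and -2.24 for HSC against ESC, and that of all probe sets was 0.21, 0.17 and -0.02. Brighter probe sets had another balance of calls. Of 22518 with a mean above the median, fitted alone, 1589 were called higher and 2729 lower in VSEL than in HSC. Of the 13 members among them, 6 were higher and 1 lower. Against ESC 1276 were called higher and 3216 lower, beside none and 7 of the 13.

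The libraries show the same layout without a test. No VSEL library overlapped an HSC library for any of the 16 probe sets. In 15 of them both VSEL libraries were above every HSC library, and 40.0% of all probe sets did the same. In Dusp6 both were below, as in 12.8% of all. By single arrays 1 of the 15 overlapped, Fgf4 1449729_at. Against ESC, 9 of the 16 had both VSEL libraries below every ESC library, beside 16.4% of all probe sets, 7 overlapped, and none had both above, as 38.1% of all did. In HSC against ESC, 14 had every HSC library below every ESC library, beside 16.7% of all probe sets, and 2 overlapped, while 13.3% of all had HSC above.

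**Figure D1:**
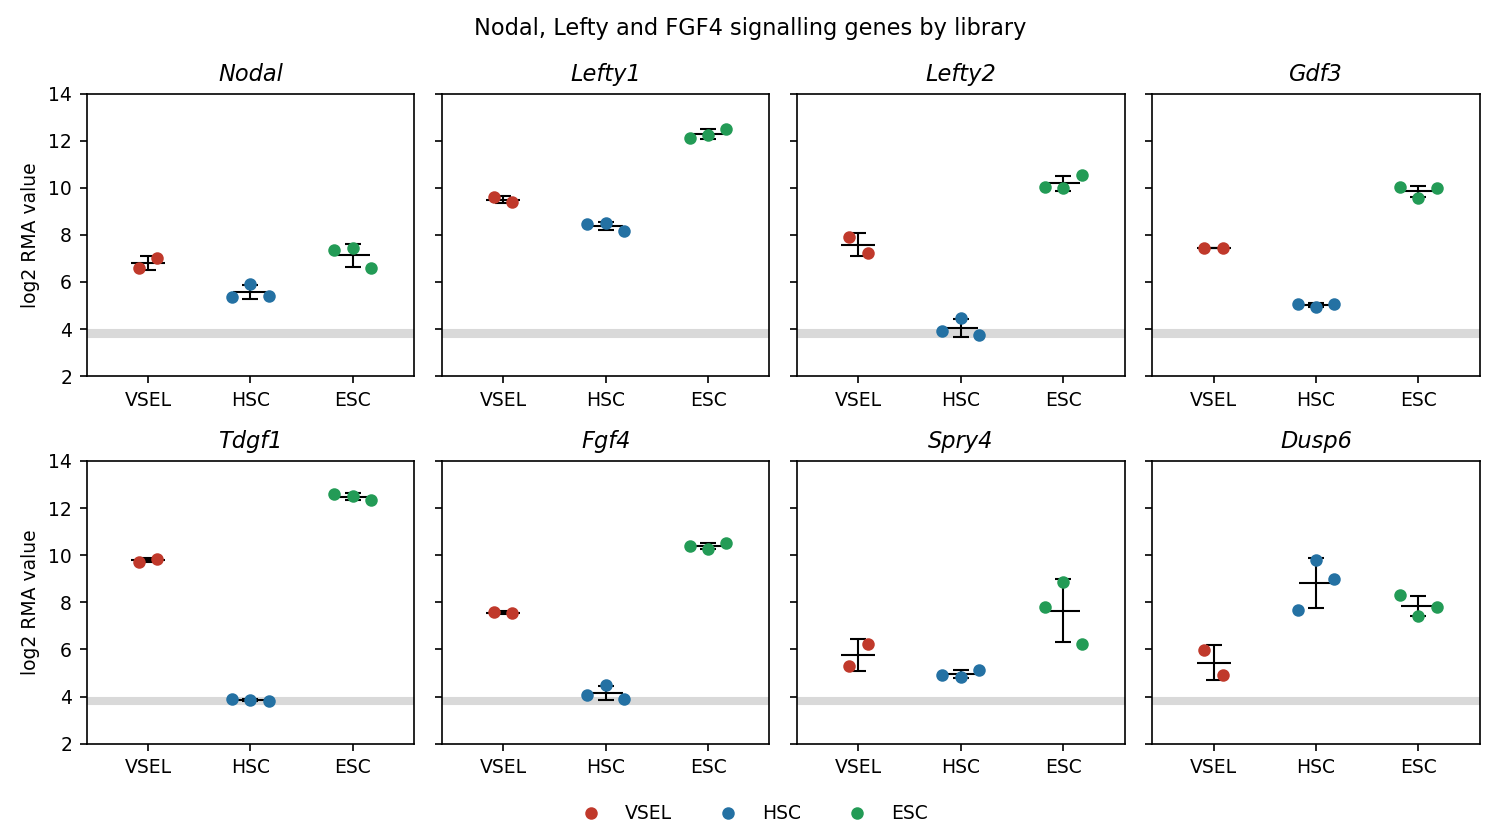
Log2 RMA signal of the 8 genes by library, each gene shown by its highest-mean probe set, with VSEL, HSC and ESC side by side; dots are libraries, the black bar is the mean ± SD and the grey band spans the lower quartiles of the 9 arrays. Tdgf1 sits between 9.73 and 9.85 in VSEL and at or under 3.91 in HSC, and Dusp6 is the panel in which VSEL is lowest.

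Nodal, the ligand of the pathway, was read by 2 probe sets designed from the same sequence entry. The brighter one (1422058_at) gave 6.58, 7.29 and 6.71 in VSEL 1 to 3, 5.37, 5.92 and 5.42 in HSC and 7.37, 7.46 and 6.58 on the ESC arrays. The VSEL and ESC arrays overlapped, and all HSC arrays were below both. The difference between VSEL and HSC was 1.22 ± 0.32 (SE) and was not called (limma adjusted p = 0.0551). It was called in 5 alternatives, with repeated quantile normalization (adjusted p = 0.0241), ribosomal centring (0.00907), 9 separate arrays (0.0239), the replicate number as a block (0.018) and without ESC 3 (0.0373). Between VSEL and ESC the difference was -0.35 ± 0.32 (adjusted p = 0.497), and its sign turned with repeated quantile normalization (0.17). HSC lay below ESC by a called difference of -1.57 ± 0.29 (adjusted p = 0.019). That call ended without HSC 1 (adjusted p = 0.0682), HSC 3 (0.0664), ESC 1 (0.0693) or ESC 2 (0.0664).

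The dimmer Nodal probe set (1422057_at) gave 4.95, 4.82 and 4.99 in VSEL, 4.43, 4.56 and 4.60 in HSC and 5.11, 4.52 and 5.24 in ESC. It was called in none of the 3 comparisons, with differences of 0.40 ± 0.22 for VSEL against HSC, -0.03 ± 0.22 for VSEL against ESC and -0.43 ± 0.20 for HSC against ESC. The limma adjusted p-values were 0.248, 0.951 and 0.292. Without ESC 2 the last of these was called (-0.64, adjusted p = 0.0325), and with ribosomal centring the first was (0.93, adjusted p = 0.0323). The sign of the difference between VSEL and ESC turned with ribosomal centring and without ESC 1, ESC 3 or VSEL 2, to between 0.02 and 0.30.

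Gdf3, a ligand close to Nodal that pluripotent cells and germ cell tumours express, was also read by 2 probe sets. The brighter one (1449288_at) gave 7.43 on each of the 3 VSEL arrays, 5.07, 4.93 and 5.06 in HSC and 10.01, 9.58 and 9.97 on the ESC arrays. The 3 VSEL values were identical as deposited, which held for 93 of 45037 probe sets in VSEL, 183 in HSC and 232 in ESC. The groups lay apart, with a gap of about the same size on either side of VSEL. The difference was 2.41 ± 0.16 for VSEL against HSC (limma adjusted p = 0.000477) and -2.42 ± 0.16 for VSEL against ESC (limma adjusted p = 0.000994). HSC differed from ESC by -4.83 ± 0.14 (limma adjusted p = 8.57e-06).

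The other Gdf3 probe set (1460057_at) did not repeat these calls. It gave 5.98, 6.10 and 6.19 in VSEL, 5.39, 5.43 and 5.18 in HSC and 6.42, 9.04 and 5.83 in ESC. ESC 2 stood 2.62 above ESC 1, and the SD in ESC was 1.71. No comparison was called, with limma adjusted p of 0.59 for VSEL against HSC, 0.459 for VSEL against ESC and 0.281 for HSC against ESC.

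Tdgf1, the coreceptor that Nodal needs, showed the widest range of the 8 genes. Its promoter region, from 250 bases before to 50 after the start on the minus strand of chr9:110946109-110946408 (GRCm38.p6, RefSeq), is shown because this gene had the largest differences of the 8 in both comparisons with HSC. Capitals mark matches to TATAA, to CAGAC (a core element bound by Smad proteins) and, on the other strand, to GGGCGG (a GC box).
Tdgf1 promoter: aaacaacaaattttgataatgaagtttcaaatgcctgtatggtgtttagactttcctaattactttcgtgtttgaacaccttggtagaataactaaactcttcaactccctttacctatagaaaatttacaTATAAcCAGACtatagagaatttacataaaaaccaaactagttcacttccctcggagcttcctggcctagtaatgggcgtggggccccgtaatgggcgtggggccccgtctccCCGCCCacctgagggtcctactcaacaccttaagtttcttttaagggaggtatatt
TATAA lay 119 bases and CAGAC 113 bases before the start. On either strand, 24.9% of 32851 promoters of this length held TATAA, 49.6% held CAGAC and 35.7% held GGGCGG, so these matches are common. The window held 41.7% G or C and 7 CpG, against a median of 52.7% over all promoters, and carried a direct repeat of 19 bases (gtaatgggcgtggggcccc) in copies side by side. A match is a description of letters and not a binding site.

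Tdgf1 was read by 1 probe set (1450989_at). It gave 9.73, 10.13 and 9.58 in VSEL, 3.91, 3.83 and 3.80 in HSC and 12.62, 12.51 and 12.36 in ESC. The HSC values were at percentiles 26.7 to 30.0 of all probe sets of their arrays, the VSEL values at 91.8 to 93.1 and the ESC values at 98.6 to 98.9. VSEL lay 5.94 ± 0.12 above HSC (limma adjusted p = 8.33e-06) and -2.70 ± 0.12 from ESC (adjusted p = 0.000335). The difference between HSC and ESC was -8.64 ± 0.11 (adjusted p = 8.42e-07).

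Lefty1 and Lefty2 are neighbours on chromosome 1, with 2 annotated genes between them, and each was read by 1 probe set. Lefty1 (1417638_at) gave 9.59, 9.48 and 9.29 in VSEL, 8.47, 8.50 and 8.18 in HSC and 12.09, 12.26 and 12.50 in ESC. The groups did not overlap, and the HSC values were still at percentiles 82.7 to 84.5 of their arrays. VSEL lay 1.11 ± 0.17 above HSC, 2.15-fold (limma adjusted p = 0.0133), and -2.80 ± 0.17 from ESC (adjusted p = 0.000845). Between HSC and ESC it was -3.90 ± 0.15 (adjusted p = 2.91e-05).

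Lefty2 (1436227_at) gave 7.92, 7.58 and 6.88 in VSEL, 3.93, 4.47 and 3.73 in HSC and 10.01, 10.00 and 10.55 in ESC. In HSC this inhibitor was at percentiles 25.1 to 41.1 of the arrays, lowest in HSC 3 and highest in HSC 2. The difference was 3.53 ± 0.32 for VSEL against HSC (limma adjusted p = 0.00174), and -2.62 ± 0.32 for VSEL against ESC (adjusted p = 0.00643). For HSC against ESC it was -6.14 ± 0.29 (adjusted p = 5.85e-05). The calls of Lefty1, Lefty2, Gdf3 (1449288_at) and Tdgf1 held in all 3 comparisons under each of the 20 alternatives. The weakest was Lefty1 in VSEL against HSC, with adjusted p of 0.00248 to 0.0497 and differences of 1.002 to 1.63.

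**Figure D2:**
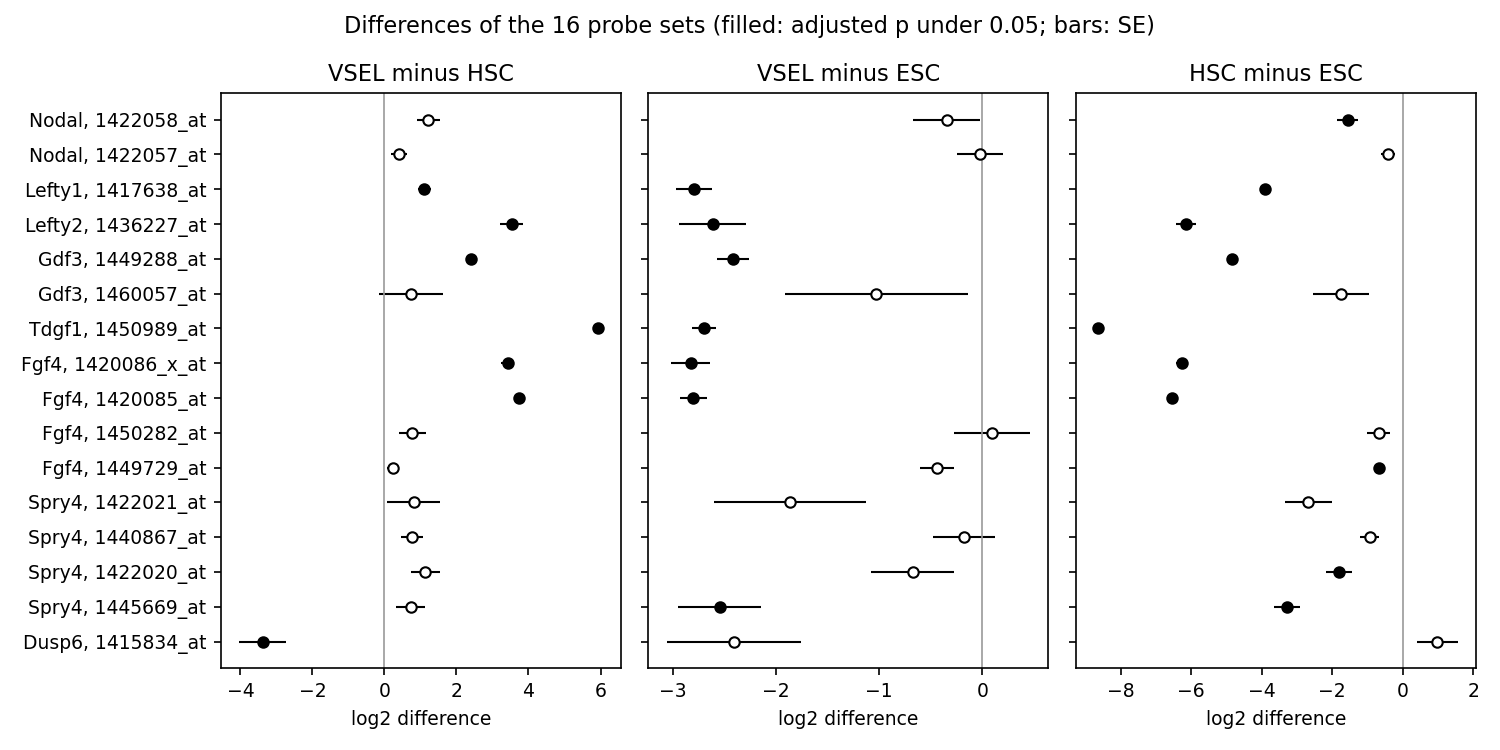
Log2 difference ± SE of each of the 16 probe sets in VSEL against HSC, VSEL against ESC and HSC against ESC, with filled points for an adjusted p under 0.05. In VSEL against HSC the filled points run from Tdgf1 at 5.94 to Dusp6 at -3.39, and in the other comparisons every filled point is below 0.

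Fgf4, the growth factor of the module, was read by 4 probe sets. Its promoter region on the plus strand, chr7:144861136-144861435 (GRCm38.p6, RefSeq, from 250 bases before to 50 after the start), is shown. The reason is that Fgf4, by its probe set with the highest mean, followed the same order of cell types as Tdgf1. Capitals mark 2 matches to GGGCGG (a GC box) and 1 to ATTGG (a reverse-strand match to the CAAT-type box).
Fgf4 promoter: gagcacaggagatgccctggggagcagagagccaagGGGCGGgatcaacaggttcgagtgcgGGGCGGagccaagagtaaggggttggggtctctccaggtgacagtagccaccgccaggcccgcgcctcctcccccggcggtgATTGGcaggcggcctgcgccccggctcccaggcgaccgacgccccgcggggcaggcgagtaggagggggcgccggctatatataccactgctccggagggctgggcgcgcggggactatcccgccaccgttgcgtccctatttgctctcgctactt
The GC boxes lay 214 and 188 bases before the start and the ATTGG 106 before it. On either strand, ATTGG was held by 37.4% of all promoters of this length. The window held 69.7% G or C and 28 CpG, where the Tdgf1 window had 41.7% and 7. The octamer ATGCAAAT and the SOX element ACAATG, which 1.74% and 12.6% of promoters held, gave no match in the windows of the 4 members with a promoter in the table, which says only that these letters are not in those windows.

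The Fgf4 probe sets fell into pairs. The probe set 1420085_at gave 7.54, 7.60 and 7.44 in VSEL, 3.85, 3.68 and 3.86 in HSC and 10.25, 10.25 and 10.51 in ESC. The probe set 1420086_x_at, designed from the same entry and marked as open to matches elsewhere, gave 7.60, 7.60 and 7.46 in VSEL, 4.06, 4.48 and 3.89 in HSC and 10.39, 10.28 and 10.51 in ESC. In both, the 3 groups were wide apart and VSEL arrays lay close together, and the HSC values of 1420085_at were at percentiles 23.9 to 28.8 of their arrays. By 1420085_at VSEL differed from HSC by 3.74 ± 0.13 (limma adjusted p = 4.24e-05), and from ESC by -2.81 ± 0.13 (adjusted p = 0.000361). HSC differed from ESC by -6.54 ± 0.12 (adjusted p = 1.92e-06). By 1420086_x_at the differences were 3.42 ± 0.19, -2.83 ± 0.19 and -6.25 ± 0.17, and all were called, as were those of 1420085_at, under each of the 19 alternatives that kept these probe sets.

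The other pair gave little. The probe set 1450282_at gave 6.76, 6.68 and 7.06 in VSEL, 6.06, 6.03 and 6.02 in HSC and 7.52, 6.24 and 6.40 in ESC, and was called in no comparison (limma adjusted p of 0.199, 0.888 and 0.321). Its difference between VSEL and HSC of 0.78 was called without ESC 1 (adjusted p = 0.0201), in the fit of only the 2 groups (0.0415) and, as 1.30, with ribosomal centring (0.0256). Its sign in VSEL against ESC turned without ESC 2 (-0.15), ESC 3 (-0.07) or VSEL 3 (-0.00). The probe set 1449729_at, from the same entry as the bright pair, gave 3.29, 3.29 and 3.12 in VSEL, 3.17, 3.08 and 2.81 in HSC and 3.79, 3.79 and 3.47 in ESC, at percentiles 3.1 to 27.4 of the arrays. HSC differed from ESC by -0.67 ± 0.15 (adjusted p = 0.0359), a call that ended without any 1 of HSC 1 to 3, ESC 1, ESC 2 or VSEL 1 (adjusted p of 0.0505 to 0.12), and VSEL differed by 0.23 ± 0.16 from HSC and by -0.44 ± 0.16 from ESC, without a call. With ribosomal centring the first was called (0.75, adjusted p = 0.0197), and with the replicate number as a block the second was (-0.46, adjusted p = 0.0462).

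Spry4, a Sprouty protein that restrains the cascade below FGF receptors, was read by 4 probe sets that differed in their results. The probe set with the highest mean (1422021_at) gave 5.29, 6.09 and 6.41 in VSEL, 4.93, 4.82 and 5.12 in HSC and 7.81, 8.88 and 6.22 in ESC. VSEL and ESC overlapped, through ESC 3. No comparison was called, with limma adjusted p of 0.475 for VSEL against HSC, 0.139 for VSEL against ESC and 0.0547 for HSC against ESC. Without ESC 3 the differences from ESC were called, at -2.58 for VSEL (adjusted p = 0.0386) and -3.39 for HSC (adjusted p = 0.00918). The difference between HSC and ESC was also called in 5 other alternatives (adjusted p of 0.0223 to 0.0493).

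The probe set 1422020_at gave 5.83, 5.53 and 5.49 in VSEL, 4.47, 4.69 and 4.43 in HSC and 6.78, 6.75 and 5.50 in ESC, where ESC 3 again stood below the other ESC arrays. HSC differed from ESC by -1.81 ± 0.36 (limma adjusted p = 0.0248), which was no longer called without HSC 1 to 3 in turn or without ESC 1 or ESC 2 (adjusted p of 0.062 to 0.0835). VSEL differed from HSC by 1.14 ± 0.40 (adjusted p = 0.107) and from ESC by -0.68 ± 0.40 (adjusted p = 0.29). Both were called without ESC 3, with adjusted p of 0.0165 and, for a difference of -1.10, 0.0266. The first was also called in the fit of only the 2 groups (0.0434) and with ribosomal centring (0.0154).

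The remaining Spry4 probe sets stood apart from each other. The probe set 1445669_at gave 3.93, 3.64 and 3.68 in VSEL, 2.97, 2.90 and 3.32 in HSC and 5.84, 6.04 and 7.16 in ESC. Here ESC 3 was the highest ESC array, and the sorted cells were at percentiles 4.8 to 25.6 of their arrays. It differed by -2.55 ± 0.40 in VSEL against ESC (limma adjusted p = 0.0136) and by -3.28 ± 0.36 in HSC against ESC (adjusted p = 0.00218), and by 0.73 ± 0.40 in VSEL against HSC without a call. The probe set 1440867_at gave 6.41, 5.98 and 6.25 in VSEL, 5.87, 5.20 and 5.44 in HSC and 6.12, 6.29 and 6.92 in ESC. It was called in no comparison as deposited, and its sign in VSEL against ESC turned with quantile normalization (0.07), ribosomal centring (0.14) and without ESC 3 (0.06). With ribosomal centring its difference of 1.29 between VSEL and HSC was called (adjusted p = 0.0227).

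Dusp6, a phosphatase that removes phosphate from ERK and is induced by ERK signalling, had its lowest mean in VSEL. Its promoter region on the plus strand, chr10:99262981-99263280 (GRCm38.p6, RefSeq, from 250 bases before to 50 after the start), is shown because Dusp6 was the 1 gene of the 8 called lower in VSEL than in HSC. Capitals mark the 1 match, to ATTGG (a reverse-strand match to the CAAT-type box), 46 bases before the start.
Dusp6 promoter: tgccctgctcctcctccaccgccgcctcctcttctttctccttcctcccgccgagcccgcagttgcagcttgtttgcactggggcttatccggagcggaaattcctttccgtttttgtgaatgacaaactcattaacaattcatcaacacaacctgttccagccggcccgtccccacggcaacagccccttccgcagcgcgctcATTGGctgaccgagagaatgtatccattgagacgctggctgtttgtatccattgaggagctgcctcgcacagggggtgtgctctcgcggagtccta
The window held 57.3% G or C and 19 CpG, and a direct repeat of 13 bases (tgtatccattgag) in copies 25 bases apart.

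Dusp6 (1415834_at) gave 5.96, 5.06 and 4.80 in VSEL, 7.69, 9.79 and 9.002 in HSC and 8.30, 7.44 and 7.82 in ESC. VSEL was below every HSC and ESC array, and HSC and ESC overlapped. Its VSEL libraries were also the farthest apart of all members, at 5.96 for VSEL 1 and 4.93 for VSEL 2+3. The VSEL values were at percentiles 42.7 to 64.8 of their arrays and were not shown to lie above background, so no fold is given. VSEL differed from HSC by -3.39 ± 0.65 (limma adjusted p = 0.0243). That call ended without HSC 3 (adjusted p = 0.0632), in a fit of only the 2 groups (0.0834) and with VSEL 1 as the lone VSEL library (0.0796). The difference of -2.41 ± 0.65 from ESC was not called (adjusted p = 0.0574), and it was called with 9 separate arrays (0.0178), in the fit of only the 2 groups (0.0466), among probe sets with a mean above the median (0.046) and without HSC 1 (0.0323) or HSC 2 (0.0488). HSC differed from ESC by 0.97 ± 0.58 without a call (adjusted p = 0.437).

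The distance of each VSEL library from the ESC mean was much the same for most called members. For Lefty1 it was -2.69 in VSEL 1 and -2.90 in VSEL 2+3, for Tdgf1 -2.77 and -2.64, and for Fgf4 (1420085_at) -2.79 and -2.82. For Gdf3 (1449288_at) it was -2.42 in both. On the linear scale the VSEL libraries held 15.5% and 13.4% of the ESC signal for Lefty1, 14.7% and 16.1% for Tdgf1, 14.4% and 14.2% for Fgf4 (1420085_at) and 18.7% for Gdf3 (1449288_at). Lefty2 spread more, at -2.27 in VSEL 1 and -2.96 in VSEL 2+3 (20.7% and 12.9%).

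The 6 pluripotency markers other than Tdgf1 (Pou5f1, Sox2, Nanog, Zfp42, Dppa5a and Esrrb) gave offsets in the same range. Their median offset was -2.70 in VSEL 1 (-2.98 to -2.19) and -2.74 in VSEL 2+3 (-3.21 to -1.92). Nodal (1422058_at) lay outside that range, at -0.56 in VSEL 1 and -0.14 in VSEL 2+3. So did Nodal 1422057_at, Gdf3 1460057_at (-1.11 and -0.95), Fgf4 1450282_at (0.04 and 0.15) and Fgf4 1449729_at. Spry4 1440867_at (-0.03 and -0.33) and Spry4 1422020_at (-0.52 and -0.83) did too. Spry4 1422021_at (-1.39) lay outside in VSEL 2+3, and Dusp6 (-1.90) in VSEL 1. The member offsets listed above are from probe sets called lower in VSEL than in ESC, and such a call needs a negative offset. No test of a common offset was made, and these libraries share the ESC mean as denominator. Between VSEL 1 and VSEL 2+3, the members differed by a median of 0.19 (0.00 to 1.03), and all probe sets by a median of 0.26 with quartiles of 0.11 and 0.57.

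**Figure D3:**
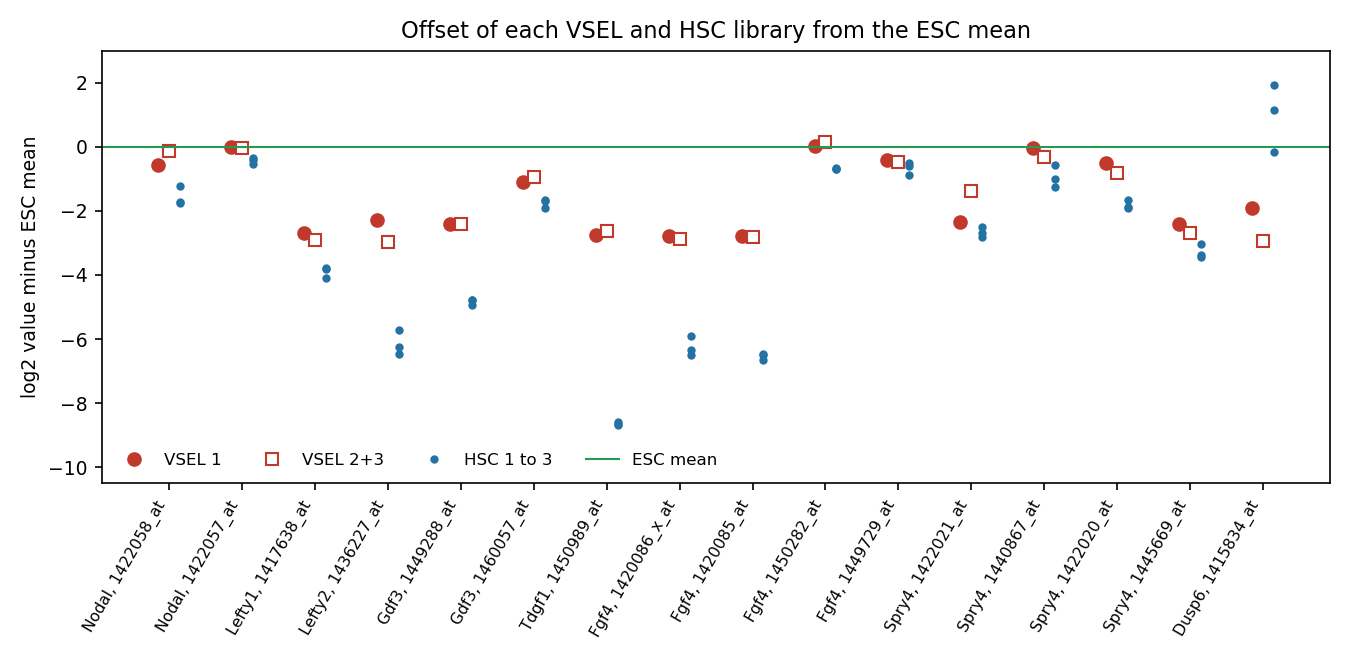
Log2 value of each VSEL and HSC library minus the ESC mean for the 16 probe sets, with the ESC mean as a line at 0. The 6 probe sets of Lefty1, Lefty2, Gdf3 (1449288_at), Tdgf1 and Fgf4 (1420085_at and 1420086_x_at) have VSEL libraries between -2.27 and -2.96, while their HSC libraries spread far more widely below.

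Genes with the most similar profile were found by the root mean square (RMS) difference over the 8 libraries, after each probe set was centred on its own mean, among 19792 probe sets with a mean above the median. For Lefty2 the nearest gene was another member, Fgf4 (RMS difference 0.211), followed by Ak4 (0.25) and Fabp3 (0.272). For Fgf4 (1420086_x_at) the order was Col4a1 (0.119), Fabp3 (0.198) and Ak4 (0.204), and Lefty2 came just behind. Col4a1, which encodes a basement membrane collagen, averaged 8.84 in VSEL, 5.41 in HSC and 11.66 in ESC. The nearest to Tdgf1 were Stmn2 (0.214), the pluripotency factor Nanog (0.292) and Igfbp2 (0.45). Gdf3 was nearest to Camsap3 (0.121), Gata6 (0.134) and Cystm1 (0.146), and Lefty1 to Rilpl1 (0.159), Eda2r (0.168) and Shmt1 (0.215).

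Nodal was nearest to Pask (0.206), Myo10 (0.231) and Ddx39a (0.232), and Spry4 to Bdh2 (0.227), Guca1a (0.242) and Dennd2a (0.283). Dusp6 was nearest to Ebag9 (0.219), Snhg1 (0.33) and Zfp110 (0.365), which were likewise lowest in VSEL. Within the module, Lefty1 was nearer to Gdf3 (0.579) than to its neighbour Lefty2 (1.14), and Tdgf1 and Dusp6 were the farthest apart (4.65). These are descriptions over libraries that share amplification and array processing.

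Of 28 other genes of the Nodal and activin pathway, 25 were measured, each by its probe set with the highest mean. In VSEL against HSC, 3 were called higher, 6 lower and 16 were not called, and the median difference was 0.28, against 0.22 for all genes. The background for genes was 18.3% called (9.29% higher and 9.04% lower). In VSEL against ESC none was called higher, 5 lower and 20 not, with a median of -0.23 against 0.11 for all genes and a background of 17.9% (7.59% higher and 10.3% lower). At an unadjusted limma p under 0.05, 3 were higher and 6 lower, beside 19.7% and 17.5% of all genes. In HSC against ESC 3 were called higher and 3 lower, beside a background of 15.3% (6.38% higher and 8.89% lower). The split depends on the scale. With ribosomal centring 61.1% of the calls against HSC were higher and 37.5% of those against ESC, against 33.3% and none as deposited.

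The called genes of this pathway held different places in it. Inhbb, which encodes an activin and inhibin subunit, averaged 6.92 ± 0.59 in VSEL, 4.64 ± 0.14 in HSC and 9.30 ± 0.66 in ESC. It was called higher in VSEL than in HSC (2.28, limma adjusted p = 0.0214) and lower than in ESC (-2.38, adjusted p = 0.0188). Pcsk6, a protease that processes Nodal precursors, averaged 6.63 ± 0.11 in VSEL, 5.93 ± 0.24 in HSC and 7.81 ± 0.06 in ESC and was called the same way, with differences of 0.70 (adjusted p = 0.0382) and -1.18 (adjusted p = 0.00894). Foxh1, the DNA-binding partner of Smad2 and Smad3, averaged 8.21 ± 0.00 in VSEL, 6.43 ± 0.14 in HSC and 10.28 ± 0.41 in ESC. It differed by 1.78 from HSC (adjusted p = 0.00819) and by -2.06 from ESC (adjusted p = 0.00535). These 3 genes thus had the order of cell types that Lefty1, Lefty2 and Tdgf1 had.

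Other components were lower in VSEL. Acvr1b, the type I receptor for activin and Nodal, averaged 7.91 ± 0.25 in VSEL, 10.12 ± 0.24 in HSC and 10.55 ± 0.25 in ESC, with differences of -2.21 (limma adjusted p = 0.00241) and -2.64 (adjusted p = 0.00182). Its dimmer probe set (1422098_at) was called the opposite way against ESC (0.67, adjusted p = 0.0486). Smad3 averaged 7.27 ± 0.05 in VSEL, 10.49 ± 0.49 in HSC and 7.87 ± 0.46 in ESC, and was lower in VSEL than in HSC by a difference of -3.23 (adjusted p = 0.00365). Its difference of -0.60 from ESC was not called (adjusted p = 0.287) and turned to 0.13 with quantile normalization and 0.12 with loess.

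The transducer Smad2 (-2.87, limma adjusted p = 0.0267) and the inhibitory Smad7 (-2.87, adjusted p = 0.0133; 0.0512 with array weights) were lower in VSEL than in HSC. So were the Smad corepressor Ski (-2.40, adjusted p = 0.0175) and Eomes, a transcription factor of mesendoderm and of T and NK cells (-4.33, adjusted p = 0.0205). Of the 5 T and NK markers, 4 were likewise lower in VSEL than in HSC. Ski was also lower than in ESC (-1.93, adjusted p = 0.0319). The calls of Acvr1b, Foxh1 and Smad3 against HSC and those of Acvr1b and Foxh1 against ESC held in every alternative that kept the gene. Among the others against HSC, scaling and single libraries mattered. With quantile normalization the calls of Ski (adjusted p = 0.059) and Smad2 (0.0668) ended, and with loess that of Smad2 (0.0576). Array weights ended those of Eomes, Inhbb, Pcsk6, Ski, Smad2 and Smad7. Without HSC 1 the calls of Eomes, Inhbb, Pcsk6 and Smad2 ended, and 5 of the 9 were left; without HSC 2 Inhbb and Smad2 did, without HSC 3 Eomes, Inhbb and Pcsk6, without VSEL 1 Eomes, Pcsk6 and Ski, and without any 1 of the ESC libraries Pcsk6. Against ESC, the calls of Pcsk6 (adjusted p = 0.0595), Inhbb (0.0533) and Ski (0.166) ended with quantile normalization. Ski also ended with loess (0.166) and array weights (0.0774). In the fit of only the 2 groups, Inhbb (0.0617) and Ski (0.0547) ended. Among single libraries, Inhbb ended without ESC 1 or VSEL 1, and Ski without ESC 2, ESC 3, HSC 3 or VSEL 1. Over all genes of both pathways, adjusted p without a single library where a call ended was 0.0501 to 0.164 against HSC and 0.0518 to 0.13 against ESC.

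Of 38 other genes of the FGF and ERK pathway, 32 were measured. In VSEL against HSC, 5 were called higher and 4 lower, beside 9.29% and 9.04% of all genes, with a median difference of 0.07 against 0.22 for all genes. In VSEL against ESC, 2 were called higher and 9 lower, beside 7.59% and 10.3% of all genes, with a median of -0.95 against 0.11. In HSC against ESC 3 were called higher and 6 lower, beside 6.38% and 8.89% of all genes. With ribosomal centring 12 of 16 calls against HSC were higher, with quantile normalization 66.7% and with loess 71.4%, against 55.6% as deposited. Against ESC 30.8% were higher with ribosomal centring and 28.6% with loess, against 18.2% as deposited. In HSC against ESC 22.2% were higher with ribosomal centring, against 33.3% as deposited.

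Close to the receptor, 2 genes followed Fgf4. Fgfr1, a receptor for Fgf4, averaged 7.07 ± 0.19 in VSEL, 5.33 ± 0.52 in HSC and 9.65 ± 0.21 in ESC, with differences of 1.73 (limma adjusted p = 0.0197) and -2.59 (adjusted p = 0.00578). Its call against HSC ended in the fit of only the 2 groups (adjusted p = 0.0748) and with VSEL 1 as the lone VSEL library (0.0645). Gab1, a docking adaptor, averaged 8.70 ± 0.03 in VSEL, 5.84 ± 0.66 in HSC and 10.997 ± 0.40 in ESC, with differences of 2.86 (adjusted p = 0.00978) and -2.29 (adjusted p = 0.0193). The adaptors Grb2 and Shc1 did not. Grb2 differed by -1.99 in VSEL against HSC (adjusted p = 0.0103) and Shc1 by -1.68 (adjusted p = 0.0102), and Shc1 also by -1.65 against ESC (adjusted p = 0.0112). Grb2 was not called against ESC (-0.75, adjusted p = 0.129), where its sign turned with quantile normalization (0.03).

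Among the kinases, Araf (-2.73, limma adjusted p = 0.0493) and Map2k1 (-1.49, adjusted p = 0.031) were lower in VSEL than in HSC, and Map2k1 also than in ESC (-1.99, adjusted p = 0.0139), a call that ended with loess (0.0689) and in the fit of only the 2 groups (0.0518). Map2k2, which encodes the other MEK kinase, averaged 12.10 ± 0.37 in VSEL, 11.07 ± 0.16 in HSC and 10.57 ± 0.23 in ESC. It was higher in VSEL than in HSC (1.03, adjusted p = 0.0307) and than in ESC (1.53, adjusted p = 0.0101), and the call against ESC held in all 20 alternatives. Of 9 further feedback inhibitors, 3 were called lower in VSEL than in ESC. Dusp9, an ERK phosphatase, averaged 6.90 ± 0.19 in VSEL, 5.94 ± 0.16 in HSC and 8.56 ± 0.06 in ESC, and differed by 0.96 from HSC (adjusted p = 0.0111; 0.0576 in the fit of only the 2 groups) and -1.66 from ESC (adjusted p = 0.00202). Il17rd, a membrane inhibitor of FGF signalling, differed from ESC by -1.94 (adjusted p = 0.0209) and Dusp4, another phosphatase, by -1.97 (adjusted p = 0.033). Neither was called between VSEL and HSC (adjusted p of 0.0929 and 0.154).

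The ETS factors Etv4 and Etv5 are targets of FGF signalling. Etv4 averaged 7.88 ± 0.40 in VSEL, 6.35 ± 0.40 in HSC and 9.96 ± 0.26 in ESC, with differences of 1.53 (limma adjusted p = 0.0252) and -2.08 (adjusted p = 0.0103). Its call against HSC ended in the fit of only the 2 groups (limma adjusted p = 0.0794) and with array weights (0.0607). With VSEL 1 as the lone VSEL library that difference was 1.245. Etv5 differed from ESC by -3.27 (adjusted p = 0.0402). Myc was higher in VSEL than in ESC by 1.94 (adjusted p = 0.0474), and its difference of -0.28 from HSC was not called (adjusted p = 0.71) and turned to 0.17 with loess, 0.25 with ribosomal centring and 0.14 without HSC 1.

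Scaling and single libraries decided several of these calls. With loess the limma calls of Araf (adjusted p = 0.119) and Map2k1 (0.116) against HSC ended. So did those of Dusp4 (0.135), Etv5 (0.108) and Gab1 (0.0599) against ESC. Quantile normalization ended Araf against HSC (0.0894) and Dusp4 against ESC (0.119). Against HSC the call of Araf ended without ESC 1, ESC 2, HSC 1, HSC 2, HSC 3, VSEL 1 or VSEL 2, that of Map2k1 without any 1 of the HSC or ESC libraries, that of Map2k2 without any 1 of the HSC libraries, ESC 1 or ESC 2, and that of Etv4 without ESC 1 or HSC 2. Il17rd was gained without ESC 1 (adjusted p = 0.0488), and without HSC 2 the pathway's calls against HSC numbered 5 of the 9. Against ESC, Etv5 and Myc were lost without any 1 of the ESC libraries, VSEL 1 or VSEL 3, Etv5 also without HSC 1 and Myc also without HSC 2. Gab1 was lost without ESC 2, ESC 3 or VSEL 1, Dusp4 without those or HSC 2, and Il17rd without ESC 2 or ESC 3. The 11 calls against ESC were 6 without ESC 2 or ESC 3 and 7 without VSEL 1. The calls of Grb2, Shc1 and Gab1 against HSC and of Fgfr1, Dusp9, Etv4 and Shc1 against ESC held in every alternative that kept the gene.

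**Figure D4:**
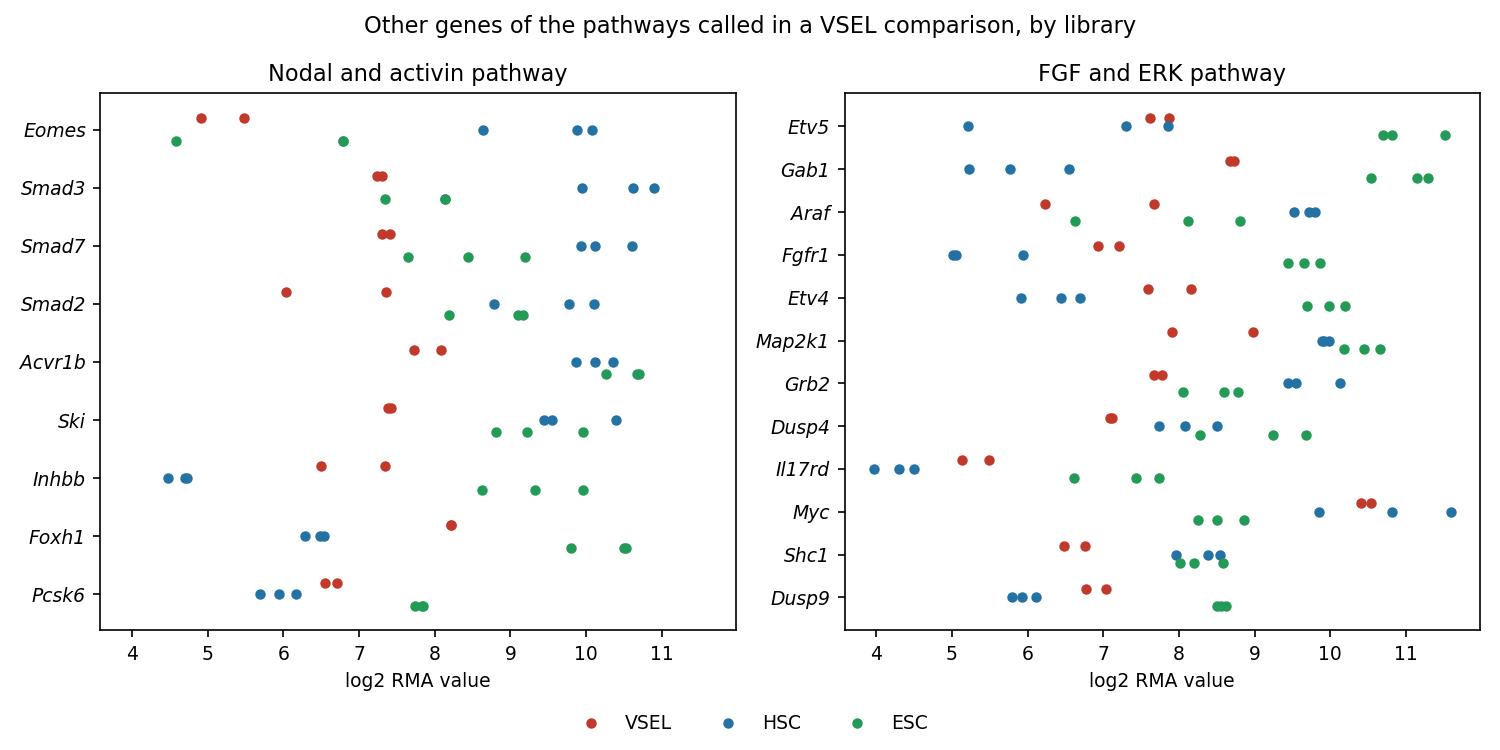
Log2 RMA signal by library of the named genes called in a VSEL comparison, with the Nodal and activin pathway on the left and the FGF and ERK pathway on the right; each dot is a library, and VSEL 2 and 3 are averaged. Foxh1, Inhbb, Pcsk6, Gab1, Fgfr1, Etv4, Il17rd and Dusp9 have the VSEL libraries between those of HSC and ESC. Acvr1b, Smad2, Smad3, Smad7, Ski, Shc1, Grb2, Map2k1 and Dusp4 have them lowest. Eomes, Araf, Etv5 and Myc have VSEL overlapping another group.

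In HSC against ESC the largest called differences of the Nodal and activin pathway were -4.67 for Inhbb (limma adjusted p = 0.000561), -3.84 for Foxh1 (adjusted p = 0.000123) and 3.48 for Eomes (adjusted p = 0.0262). Eomes was no longer called without HSC 1 or HSC 3. In the FGF and ERK pathway they were -5.15 for Gab1 (adjusted p = 0.000329), 4.71 for Dusp5 (adjusted p = 0.0407) and -4.32 for Fgfr1 (adjusted p = 0.000211). Dusp5, an ERK phosphatase, was 11.08 in VSEL 1 and 6.58 in VSEL 2+3, against 11.24 ± 0.07 in HSC and 6.53 ± 0.56 in ESC. Its call in HSC against ESC ended without any 1 of the HSC or ESC libraries, and without VSEL 1 it was called lower in VSEL than in HSC (adjusted p = 0.00451). Where a call between HSC and ESC ended without a single library, adjusted p was 0.0526 to 0.132.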

How the data were processed

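Expression was measured in 9 libraries, 3 each of VSEL, HSC and ESC. The deposited values are log2 signals per probe set that the authors made, per the submitters' processing notes, with RMA and Partek 6.5. The settings of that step were not given in the sources used here. They were used without further normalization. Of 45101 probe sets, 64 array controls were left out, and genes were named from the platform annotation, with 34741 of 34945 symbols of probe sets with 1 gene updated through gene identifiers to RefSeq (GRCm38.p6).

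limma 3.58.1 (R 4.3.3) was fitted to all 45037 probe sets with the 3 groups together (8 libraries, VSEL 2 and VSEL 3 averaged, 5 residual degrees of freedom), with a two-sided moderated test and Benjamini-Hochberg adjustment over all probe sets in each comparison. The fit was tested on simulated data. Means ± SD are over libraries, errors of differences are SE. Every member and probe set was named. From the pathway lists the text names up to 12 genes called in a VSEL comparison by size, the 3 largest called in HSC against ESC, and for each member the 3 nearest profiles. Members, gene lists and marker lists were chosen with earlier results of these data known. Acvr1b's second probe set, Map2k2, Coro1a, Laptm5 and the single markers of the HSC gate and feeder lists were named after their values were seen. Alternatives were 3 other scalings, filters, probe set choices, 9 separate arrays, array weights, a replicate block, percentiles and leaving out each library; using VSEL 1 alone was added after seeing the data. Promoters are from RefSeq (250 bases before to 50 after the start; 4 of 8 members matched), searched on both strands for the 6 motifs spelled out above and for the Foxh1 element AATCCACA, which 0.855% of promoters held and no member window did. No matches overlapped.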

Additional observations from a re-analysis of the deposited data

How the results depend on the processing

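The replicate numbers were not used to pair the libraries. Same-numbered arrays deviated from their group means with correlations of -0.09 to 0.16. With so few arrays this cannot show whether they shared animals or a sort. With the replicate number as a block on 9 arrays, 6528, 6552 and 4785 probe sets were called in VSEL against HSC, VSEL against ESC and HSC against ESC, against 6389, 6334 and 4788, and of the 16 member probe sets 8, 8 and 10, against 7, 7 and 10. Of the 924 member differences recomputed under an alternative, 864 kept their direction and their side of the threshold. All probe sets called in VSEL against HSC numbered 3934 with cyclic loess, 26021 with ribosomal centring, 3170 with 1 probe set per gene (a smaller table), 2435 in the fit of only the 2 groups and 2702 with array weights. In VSEL against ESC they were 3728 with loess, 12182 with ribosomal centring, 3088 with 1 probe set per gene and 3332 with array weights, and in HSC against ESC 3100 with 1 probe set per gene and 2968 without probe sets with suffix _x_at, _s_at or _a_at. The member calls moved by over 1.5 times in 1 case, to 13 in VSEL against HSC with ribosomal centring. The 9 Nodal pathway calls in VSEL against HSC became 18 with ribosomal centring and 3 with array weights, and the 5 in VSEL against ESC became 2 with quantile normalization, 8 with ribosomal centring and 3 in the fit of only the 2 groups. The 9 FGF and ERK pathway calls in VSEL against HSC became 16 with ribosomal centring, 3 in the fit of only the 2 groups and 5 without suffixed probe sets, with array weights or with VSEL 1 as the lone VSEL library. The 11 in VSEL against ESC became 7 with loess, without suffixed probe sets or with array weights, and the 9 in HSC against ESC became 4 without suffixed probe sets. Leaving out 1 library gave 3524 to 7139 calls over all probe sets in VSEL against HSC (3524 without HSC 1, 4042 without HSC 2, 3669 without HSC 3, 4052 without ESC 1, 4174 without ESC 2, 4244 without ESC 3), 2734 to 7141 in VSEL against ESC (3031 without ESC 1, 2734 without ESC 2, 3418 without ESC 3) and 3618 to 5654 in HSC against ESC. For the members it gave 6 to 9, 7 to 9 and 7 to 11 calls, for the Nodal pathway 5 to 10, 4 to 6 and 4 to 6, and for the FGF and ERK pathway 5 to 9, 6 to 11 and 6 to 9. Uncalled differences that changed sign were Nodal in VSEL against ESC (1422058_at 0.172 with quantile normalization; 1422057_at 0.298 with ribosomal centring and -0.241 to 0.117 without 1 library, being 0.05, 0.117 and 0.018 without ESC 1, ESC 3 and VSEL 2), Fgf4 1450282_at (-0.149 to 0.494 without 1 library, being -0.149, -0.069 and -0.002 without ESC 2, ESC 3 and VSEL 3) and Spry4 1440867_at (0.066 with quantile normalization, 0.143 with ribosomal centring and -0.342 to 0.055 without 1 library, being 0.055 without ESC 3). In the pathways they were Grb2 (0.027) and Smad3 (0.13, and 0.119 with loess) in VSEL against ESC with quantile normalization, Myc in VSEL against HSC (0.169 with loess, 0.248 with ribosomal centring, -0.729 to 0.142 without 1 library, being 0.142 without HSC 1), and Shc1 in HSC against ESC (-0.006 with quantile normalization, -0.174 with ribosomal centring, and -0.096 to 0.195 without 1 library, being -0.093, -0.014, -0.096 and -0.004 without HSC 1, HSC 3, ESC 1 and ESC 2). By percentile on the array, 15 member probe sets had a higher mean in VSEL than in HSC, as with log2 values, and 3 in VSEL than in ESC, against 1. For counts that moved by another cause than a smaller table or fewer libraries, the cause was not tested. With 2 VSEL libraries and no detection calls, low signals such as Tdgf1 in HSC have no measured floor.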
